A study of Homo sapiens with 30 samples.

Results

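The data describe how the expression profile of LOUCY cells, cocultured on OP9-DL1 stroma, differed with and without induction of MEF2C. They comprise 6 of the 30 arrays of the study, chosen by their titles as the LOUCY_MEF2C-BFP line on OP9-DL1, with 3 arrays of cells given doxycycline (dox) and 3 arrays of cells without it. LOUCY is an established cell line from an early T cell precursor acute lymphoblastic leukemia (ETP-ALL), a leukemia with an immature T cell phenotype. Its own *MEF2C* is switched on by a rearranged chromosome, so both groups carry endogenous MEF2C, and the study describes the Notch pathway genes *NOTCH1* and *FBXW7* as unmutated in it. Both groups also carry the same lentiviral construct, in which dox switches on a codon-optimized human MEF2C that lacks the β transactivation domain, fused to 3xHA and followed by blue fluorescent protein. The line is a sorted bulk population and not a clone. None of the 30 arrays comes from a line without an inducible construct. Effects of dox itself or of the fluorescent protein therefore cannot be told apart from those of MEF2C. The same line was profiled on OP9-GFP stroma and in medium, with and without dox on 3 arrays each, and these 12 arrays serve here as the cultures to set OP9-DL1 against.

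OP9 stroma comes from mouse bone marrow and sustains blood progenitors, and OP9-DL1 cells in addition display Delta-like 1, a ligand of the Notch receptors. A bound receptor is cut by ADAM10 and γ-secretase, and its freed intracellular part joins the DNA-binding protein RBPJ and switches on targets such as *HES1*. In the thymus this signal drives progenitors toward the T cell fate. MEF2C is a MADS box transcription factor that binds an AT-rich motif, is held in check by class IIa histone deacetylases, and is best known from muscle, neural crest and B cell development. Induction on OP9-DL1 therefore asks what MEF2C does in a cell whose Notch receptors are engaged.

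All levels below are log2 RMA values, on which a difference of 1 is a 2-fold change, and each gene is read through its brightest probe set. A gene was called when its adjusted p in limma was under 0.05. On OP9-DL1, 508 of 19775 genes (2.57%) were higher with dox and 658 (3.33%) were lower. The median log2 fold change over all genes was 0.01. Leukocyte and T cell markers were bright: *PTPRC*, the pan-leukocyte CD45, was between 11.17 and 11.67 on the 6 arrays, and the T cell kinase gene *LCK* was between 9.97 and 10.56. *MS4A1* (CD20) of B cells, *MPO* and *CD14* of myeloid cells and the collagen gene *COL3A1* stayed between 3.09 and 4.22. Other genes of B cells were not low on these arrays, since *IGHM*, *EBF1* and *CD79A*, described below, were read at 6.81 or more. Arrays of a group correlated at r = 0.996 to 0.997 over all probe sets. Neither the labels nor the methods say whether the 3 arrays of a group come from separate cultures. The p-values come from a model fitted to all arrays of the study. They reflect only how far arrays of the same condition scatter, pooled over every condition, and that scatter may be technical. When only the 6 arrays on OP9-DL1 were fitted, 369 genes were called higher with dox and 480 lower. In bulk RNA, a lower level in every cell and fewer cells that express the gene cannot be told apart.

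The targeted gene was read here by 3 probe sets that list only its symbol, and they did not move the same way. Probe set 207968_s_at was at 8.66, 8.37 and 8.62 with dox and at 7.92, 7.88 and 7.98 without dox, a log2 fold change of 0.63 (SE 0.14, adjusted p = 0.00844). Both other probe sets were lower with dox. 209199_s_at, the brightest, was at 9.32, 9.29 and 9.26 with dox, against 10.31, 10.31 and 10.23 without dox (log2 fold change -0.99, SE 0.05, adjusted p = 1.53e-13). 209200_at had a log2 fold change of -0.98 (SE 0.06, adjusted p = 4.37e-11). By the study's description, a single *MEF2C* probe set on the array overlaps the construct and the others read only the endogenous transcript. The study also reports that induction repressed endogenous *MEF2C*. It counts more *MEF2C* probe sets than were found here, and its text does not pair them with probe set identifiers. Opposite directions of this kind also appeared on OP9-GFP and in medium, where 207968_s_at had log2 fold changes of 1.23 and 0.53 and 209199_s_at -1.12 and -1.08. None of the 3 probe sets was called in the difference between OP9-DL1 and either other culture.

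Sequences upstream of 5 genes are shown here because their responses on OP9-DL1 carry the comparisons below. They are the 250 bases before the annotated start in RefSeq (GRCh38.p14), read 5′ to 3′ on the strand of the gene. In *HES1*, the Notch target whose response set OP9-DL1 apart from OP9-GFP, capitals mark the RBPJ motif TGGGAA. It stands there on 2 neighbouring sites at chr3:194135898-194136147 (plus strand). In the other 4, capitals mark only the MEF2 motif, which was searched on both strands as C or T, then TA, 4 bases that are each A or T, then TA, and A or G. *KLF2* (chr19:16324576-16324825, plus strand) had the largest rise among called genes with that motif, *YWHAH* (chr22:31944285-31944534, plus strand) differed in its response between OP9-DL1 and OP9-GFP, and *TTN* (chr2:178807424-178807673, minus strand) and *JUN* (chr1:58784048-58784297, minus strand) were lower with dox.
HES1: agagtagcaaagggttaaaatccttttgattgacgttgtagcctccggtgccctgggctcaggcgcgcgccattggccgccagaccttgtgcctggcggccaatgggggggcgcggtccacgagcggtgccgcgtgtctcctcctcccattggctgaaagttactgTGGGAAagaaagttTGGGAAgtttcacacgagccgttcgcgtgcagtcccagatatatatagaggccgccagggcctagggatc
KLF2: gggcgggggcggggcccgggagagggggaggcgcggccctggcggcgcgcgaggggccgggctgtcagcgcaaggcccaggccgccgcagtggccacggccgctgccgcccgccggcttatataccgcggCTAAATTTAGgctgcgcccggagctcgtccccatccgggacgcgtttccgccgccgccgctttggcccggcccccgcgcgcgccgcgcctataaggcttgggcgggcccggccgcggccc
YWHAH: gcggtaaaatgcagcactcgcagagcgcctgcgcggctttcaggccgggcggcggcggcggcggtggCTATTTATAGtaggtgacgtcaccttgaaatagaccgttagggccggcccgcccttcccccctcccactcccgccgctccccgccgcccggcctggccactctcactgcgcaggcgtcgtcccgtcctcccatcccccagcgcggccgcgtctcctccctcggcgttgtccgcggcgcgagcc
TTN: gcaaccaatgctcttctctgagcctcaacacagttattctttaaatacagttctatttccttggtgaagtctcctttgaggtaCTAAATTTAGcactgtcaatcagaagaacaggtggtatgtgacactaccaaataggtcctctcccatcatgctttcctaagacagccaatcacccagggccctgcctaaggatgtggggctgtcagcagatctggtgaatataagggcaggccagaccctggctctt
JUN: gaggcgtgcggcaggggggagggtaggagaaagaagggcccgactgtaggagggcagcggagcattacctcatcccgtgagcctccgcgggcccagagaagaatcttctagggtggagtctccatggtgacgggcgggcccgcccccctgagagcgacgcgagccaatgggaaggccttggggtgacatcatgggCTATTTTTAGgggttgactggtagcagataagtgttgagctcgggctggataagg

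The MEF2 motif began at position -120 from the start in *KLF2*, -183 in *YWHAH*, -167 in *TTN* and -55 in *JUN*. Of the 15384 measured genes with a RefSeq promoter window, which runs from 250 bases before the start to 50 after it, 2.03% held the MEF2 motif. The share was 3.77% among genes higher with dox on OP9-DL1 (16 of 424, Wilson 95% interval 2.34% to 6.04%) and 1.81% among genes lower with dox (9 of 497, 0.956% to 3.41%). Those intervals cover counting error only, and genes are not independent replicates. Among genes beyond a log2 fold change of 1, it was found in 0 of 44 windows of higher genes and 2 of 41 of lower genes. The RBPJ motif was found in 22.8% of all windows, in 18.6% of those of higher genes and in 19.7% of those of lower genes. A match is a description of the letters in the window.

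Upon induction of MEF2C on OP9-DL1, the 12 largest rises ran from 4.86 down to 2.11 on the log2 scale, and the 12 largest falls from -2.31 to -1.70, among genes with a probe set that lists 1 symbol. All 24 were chosen as having no overlap between the groups. *SCG2*, which encodes the secretory granule protein secretogranin II, averaged 8.52 ± 0.09 with dox and 3.66 ± 0.06 without dox (SD, n = 3 each, log2 difference 4.86, SE 0.13, adjusted p = 1.77e-18). *COBL*, an actin nucleator, averaged 7.86 ± 0.23 with dox and 4.15 ± 0.14 without dox (SD, n = 3 each, log2 fold change 3.71, adjusted p = 2.74e-16). *CSRP3*, the muscle LIM protein of striated muscle, had 7.20, 7.31 and 7.03 with dox and 3.89, 3.90 and 3.64 without dox (log2 difference 3.37, adjusted p = 4.95e-14). RMA values carry no detection call, so for genes this dim without dox the difference is given on the RMA scale and not as a fold of transcript.

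*JCHAIN*, the joining chain of secreted IgM and IgA, was at 5.39, 5.48 and 5.80 with dox, against 2.32, 2.24 and 2.42 without dox (log2 difference 3.23, adjusted p = 9.42e-17), and its no-dox values are near the floor of these arrays. Some of the other large rises were of genes already bright without dox. *SLC6A13*, a GABA transporter, averaged 11.33 ± 0.02 with dox and 8.60 ± 0.07 without dox (SD, n = 3 each, log2 fold change 2.73). *TP53INP1*, a p53-inducible stress protein, averaged 11.41 ± 0.03 with dox and 9.30 ± 0.02 without dox (log2 fold change 2.11). *KYNU* (kynureninase), *LRP11*, *PSTPIP2*, *SLC5A12*, *AQP4* (a water channel) and *SLAIN1* made up the rest, between 2.12 and 3.29. Only 1 of the 3 probe sets of *TP53INP1* and 3 of the 5 of *AQP4* were higher, and by the mean of all its probe sets the log2 fold change was 0.81 for each of these genes, against 2.11 and 2.58 by the brightest.

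Of the 12 falls, *RAB27B*, a GTPase of secretory vesicles, was at 8.22, 8.24 and 8.14 with dox and at 10.11, 10.19 and 10.20 without dox (3.91-fold lower, SE 0.07, adjusted p = 1.2e-16). *RUNX2*, a Runt family transcription factor known from bone, averaged 7.24 ± 0.08 with dox and 9.03 ± 0.08 without dox (SD, n = 3 each, 3.45-fold lower, adjusted p = 4.49e-15), through 1 of its 6 probe sets. By the mean of all 6 the log2 fold change of *RUNX2* was -0.42. *DUSP6*, the phosphatase that shuts off ERK, had 8.52, 8.42 and 8.44 with dox and 10.14, 10.33 and 10.12 without dox (3.33-fold lower, adjusted p = 3.11e-13), and all 3 of its probe sets were lower. *COL15A1* averaged 3.25 ± 0.22 with dox and 5.55 ± 0.15 without dox, and *ST18* averaged 3.44 ± 0.24 with dox and 5.73 ± 0.19 without dox (SD, n = 3 each). *ST18* was lower through 1 of its 4 probe sets, with a log2 fold change of -0.60 by their mean. *BCHE* (butyrylcholinesterase), *MMRN1*, *COL6A3*, *STAP1*, *OGN*, *LGALS12* and *FPR2* completed the list, between -2.15 and -1.70. Each of the 24 calls was kept when any 1 array was left out.

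**Figure D1:**
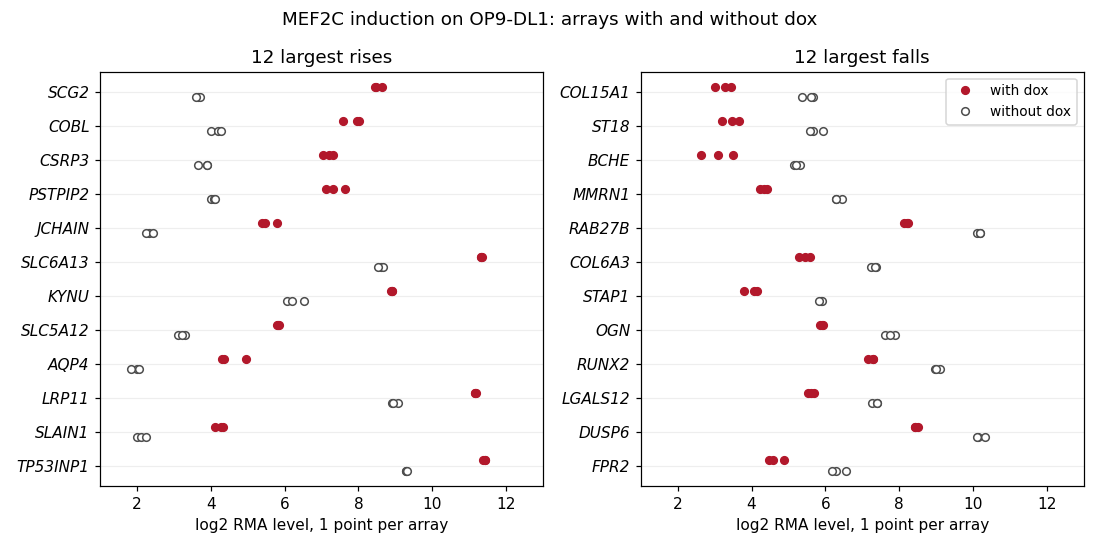
Levels of the 12 genes with the largest rise (left panel) and the 12 with the largest fall (right panel) on OP9-DL1, with log2 RMA level on the horizontal axis and 1 point per array, filled red with dox and open grey without. In no row do the 3 arrays with dox overlap the 3 without, from *SCG2* (log2 fold change 4.86) to *TP53INP1* (2.11) and from *COL15A1* (-2.31) to *FPR2* (-1.70).

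T cell receptor genes were lower with dox. The gamma chain pairs with the delta chain in the γδ form of the receptor. A set of 4 probe sets that list *TRGC2*, *TRGV9* and *TARP* together, and so cannot be assigned to 1 of these genes of the T cell receptor gamma locus, fell by 2.49 to 2.57 on the log2 scale. Probe set 216920_s_at averaged 9.52 with dox and 12.03 without dox (log2 fold change -2.51, SE 0.09, adjusted p = 2.04e-16). On OP9-GFP the same probe set had a log2 fold change of -3.15 and in medium -2.12. Its difference between OP9-DL1 and OP9-GFP was 0.64 (adjusted p = 0.0232), while those of the other 3 probe sets, 0.42 to 0.48, did not pass (adjusted p = 0.213 to 0.32).

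Of 9 measured genes of the CD3 and T cell receptor chains, 5 fell, 0 rose and 4 did not pass, with a median log2 fold change of -0.39. Over all genes 2.57% were higher and 3.33% lower, and the counts of each list below stand beside these shares. *CD3D*, a signaling chain of the complex, was at 11.45, 11.47 and 11.40 with dox, against 12.17, 12.07 and 12.11 without dox (log2 fold change -0.68, SE 0.06, adjusted p = 9.07e-09). *CD3G* was at 9.25, 9.08 and 9.33 with dox and at 9.79, 9.77 and 9.59 without dox (-0.50, adjusted p = 0.00443). *CD3E* had the smallest of the 5 changes (-0.33, adjusted p = 0.0257), and its call was lost without the dox array of replicate 1 or 2 or the no-dox array of replicate 1 or 2, with an adjusted p up to 0.144. The delta variable gene *TRDV3* averaged 11.97 ± 0.03 with dox and 12.36 ± 0.06 without dox (SD, n = 3 each, -0.39), and *TARP*, read through a probe set of its own, fell by 0.68.

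Signaling below the receptor followed the same direction, with 14 of 28 measured genes lower, 3 higher and 11 not passing (median -0.28). *LAT*, the membrane adaptor onto which the activated receptor assembles its signaling complex, was at 7.74, 7.52 and 7.56 with dox and at 8.58, 8.60 and 8.55 without dox (1.95-fold lower, adjusted p = 5.31e-06). *TESPA1*, a regulator of thymocyte receptor signaling, averaged 7.71 ± 0.06 with dox and 8.52 ± 0.03 without dox (SD, n = 3 each, log2 fold change -0.81, adjusted p = 5.56e-08). The inhibitory coreceptor gene *CD5* fell by 0.83, the kinase genes *PRKCH* by 0.76 and *LCK* by 0.52. *TXK*, a Tec family kinase gene, went against them and was at 7.55, 7.59 and 7.28 with dox, against 6.26, 6.20 and 6.01 without dox (2.49-fold, adjusted p = 8.56e-09). The costimulatory receptor gene *CD28* also rose, by 0.39 (adjusted p = 0.00648), and its call was lost without the dox array of replicate 2 or the no-dox array of replicate 3 (adjusted p up to 0.0536).

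Among T cell surface and homing genes, 8 of 23 fell and 1 rose. *CD1A*, a marker of cortical thymocytes, was at 4.79, 4.52 and 5.26 with dox and at 6.11, 6.19 and 5.99 without dox (2.36-fold lower, adjusted p = 3.23e-05). The chemokine receptor gene *CXCR3* fell by 1.14, *CD52* by 0.88, *CCR7*, a homing receptor gene, by 0.69 and *IL2RB*, a receptor chain for IL-2 and IL-15, by 0.58. *CD7*, among the first markers of the T lineage, fell by 0.44 (adjusted p = 0.0295), a call that held without the no-dox array of replicate 3 and was lost without any of the 5 others (adjusted p up to 0.175). *KLF2*, a transcription factor gene of lymphocyte homing that stood on this list, was at 6.86, 7.03 and 6.91 with dox, against 6.25, 5.84 and 5.95 without dox (1.89-fold, adjusted p = 6.52e-05).

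Transcription factors of the T lineage moved both ways, with 4 of 17 higher and 2 lower. *GATA3*, required for T cell commitment, averaged 11.98 ± 0.03 with dox and 11.59 ± 0.09 without dox (SD, n = 3 each, log2 fold change 0.39, adjusted p = 4.42e-05). *SATB1* rose by 0.36 and *SOX4* by 0.25. *LEF1* fell by 0.31 and *BCL11B* by 0.26, and the call of *BCL11B* (adjusted p = 0.0491) was lost whichever of the 6 arrays was left out. The list held 4 rises and 2 falls by the brightest probe set, 2 rises and 1 fall by the most variable probe set, and 4 rises and 0 falls by the mean of all probe sets of a gene.

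**Figure D2:**
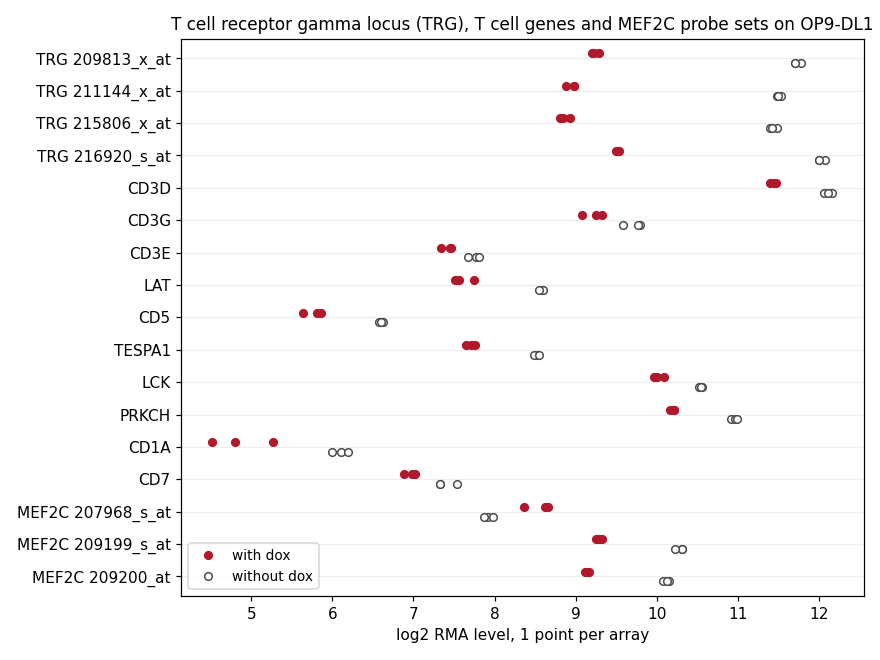
Levels on OP9-DL1 of 4 probe sets of the T cell receptor gamma locus (TRG), 10 T cell genes picked among those lower with dox and the 3 probe sets of *MEF2C*, with log2 RMA level on the horizontal axis and 1 point per array, filled red with dox and open grey without. The TRG probe sets lie farthest apart (log2 fold changes -2.57 to -2.49), and 207968_s_at of *MEF2C* lies higher with dox (0.63).

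Genes of early B cells rose in part. Of 12 measured immunoglobulin genes, 3 rose and 0 fell: *JCHAIN* as above, *IGHM* and *IGHD*. *IGHM*, the μ heavy chain, was at 12.15, 12.11 and 12.06 with dox, against 10.57, 10.38 and 10.59 without dox (3.02-fold, adjusted p = 3.07e-12), through 3 of its 5 probe sets. *IGHD* averaged 7.96 ± 0.09 with dox and 7.01 ± 0.08 without dox (SD, n = 3 each, 1.93-fold). The median of the list was 0.04, and 9 of its genes did not pass.

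Of 9 V(D)J recombination genes 3 rose and 0 fell. *RAG1*, which with *RAG2* cuts receptor gene segments in both B and T cell precursors, was at 6.10, 6.19 and 6.16 with dox and at 4.85, 4.88 and 4.92 without dox (2.41-fold, SE 0.13, adjusted p = 2.58e-07). *RAG2* was at 5.65, 5.49 and 5.33 with dox, against 4.37, 4.76 and 4.32 without dox (2.00-fold, adjusted p = 2.1e-05). The ligase gene *LIG4*, which closes the breaks, rose by 0.52.

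Transcription factors of the B lineage were split, with 5 of 19 higher and 4 lower. *IRF8* had the largest rise and was at 6.37, 6.89 and 6.69 with dox and at 5.15, 4.83 and 5.13 without dox (3.06-fold, adjusted p = 5.19e-07). *IKZF1*, which encodes Ikaros, averaged 10.60 ± 0.03 with dox and 9.88 ± 0.04 without dox, and *EBF1*, the early B cell factor, averaged 10.18 ± 0.02 with dox and 9.55 ± 0.08 without dox (SD, n = 3 each). These are log2 fold changes of 0.72 and 0.63, and *BCL6* rose by 0.58. *POU2AF1*, the B cell coactivator OBF-1, went the other way and was at 4.63, 4.62 and 4.22 with dox, against 6.17, 6.04 and 6.01 without dox (3.00-fold lower, adjusted p = 1.28e-08). *BACH2* fell by 0.78 and *IKZF3*, which encodes Aiolos, by 0.31. *PAX5*, the B lineage commitment factor, was between 4.92 and 5.25 with dox and between 4.85 and 5.22 without dox, so its groups overlapped (log2 fold change 0.01, SE 0.10).

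None of 23 genes of the B cell receptor and surface was called in limma (median 0.01), and at an unadjusted p under 0.05 there were 0 higher and 4 lower. By the mean of all probe sets 1 was higher and 3 were lower, and by the most variable probe set 0 were higher and 3 lower. *CD79A*, a signaling chain of the B cell receptor, was at 6.83, 6.97 and 6.81 with dox and at 7.19, 7.40 and 7.19 without dox, a difference that did not pass (adjusted p = 0.21).

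Of 23 progenitor and ETP-ALL genes, 4 rose and 2 fell, where 2.57% of all genes were higher and 3.33% lower. *LMO1*, a LIM-only oncogene of T cell leukemia, was at 5.55, 4.99 and 4.99 with dox and at 3.88, 3.68 and 3.73 without dox. Its log2 difference was 1.41 (adjusted p = 1.05e-07), from no-dox levels as dim as those of *CSRP3*. *LMO4* was at 9.79, 9.89 and 9.57 with dox, against 8.48, 8.55 and 8.57 without dox (2.32-fold, adjusted p = 1.54e-10), with all 5 of its probe sets higher. *LMO2*, at 8.62 to 8.68 with dox and 8.42 to 8.51 without dox, did not pass (log2 fold change 0.18, adjusted p = 0.274) and had log2 fold changes of -0.04 and -0.27 when read through the mean of its 2 probe sets or through the more variable of them. *MN1* rose by 0.81 and *CD44* by 0.32, while *WT1* fell by 1.15 and *LYL1*, another T cell leukemia oncogene, by 0.43.

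*BCL2*, the antiapoptotic founder of its family, was at 10.48, 10.51 and 10.45 with dox and at 9.63, 9.71 and 9.73 without dox (1.73-fold, adjusted p = 1.1e-08). It was the only 1 of 15 measured family members called higher, and *BCL2A1*, also antiapoptotic, and the proapoptotic *BIK* were lower. The call of *BCL2A1* was lost without the dox array of replicate 2 (adjusted p = 0.081). *IL7R*, the α chain of the IL-7 receptor and a known Notch target, averaged 6.75 ± 0.01 with dox and 6.07 ± 0.11 without dox (SD, n = 3 each, 1.61-fold, adjusted p = 0.000432), through 1 of its 2 probe sets.

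ERK feedback and early response genes were lower in 9 of 28 cases and higher in 1, *SPRY1* (0.69). After *DUSP6*, the transcription factor gene *ETV5* fell by 0.78, the immediate early gene *IER2* by 0.51 and *SPRY2*, an inhibitor of the pathway, by 0.47. *DUSP1*, a phosphatase gene of the same family as *DUSP6* that stood on the glucocorticoid list, went the other way and was at 9.03, 8.96 and 8.91 with dox, against 7.81, 7.82 and 7.92 without dox (log2 fold change 1.12, adjusted p = 2.54e-12). Leaving out 1 array gave 5 falls without the dox array of replicate 3, 6 without the dox array of replicate 2 or the no-dox array of replicate 1 or 2, and 7 without the dox array of replicate 1 or the no-dox array of replicate 3. *JUN* had a log2 fold change of -0.32 (adjusted p = 0.0415), and this call was lost whichever array was left out, with an adjusted p up to 0.256.

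In the glycolysis and hypoxia list 11 of 23 genes fell and 0 rose (median -0.21), with a fall of 1.35 for the glucose transporter gene *SLC2A3* (adjusted p = 1.6e-07), 0.78 for *PFKFB4* and 0.57 for *PDK1*, both regulatory enzymes of glucose use. Enzymes of the core pathway had smaller changes, with *ENO1* lower by 0.31 and *LDHA* by 0.21. The count was 7 without the dox or the no-dox array of replicate 3, and 8 or 9 without any other. In medium 1 gene of this list was lower and on OP9-GFP 8 were. NK and cytotoxic genes were lower in 5 of 17 cases, *CST7* by 1.09, with *GZMA* higher by 0.55. Of 41 muscle genes 2 rose (*CSRP3* and *MYOM1*) and 2 fell (*TTN* and *TPM1*), and the call of *MYOM1* (0.63) was lost whichever array was left out. With 2.57% of all genes higher and 3.33% lower, counts this small are not read as a result about the muscle list. *TTN*, the giant spring protein of the sarcomere, was at 6.36, 6.46 and 6.37 with dox and at 7.50, 7.35 and 7.41 without dox (2.03-fold lower). None of 27 cell cycle genes was called in limma, where 4 were lower at an unadjusted p under 0.05, and 2 were lower by the mean of all probe sets.

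Of 31 stromal genes, 3 were lower with dox, *COL6A3*, *TIMP1* and *SPARC*, and 0 were higher, where 3.33% of all genes were lower. The mean level of the 31 genes ranged between 4.67 and 4.78 with dox and between 4.76 and 4.87 without dox. The call of *SPARC* was lost without the dox array of replicate 3 or the no-dox array of replicate 2 (adjusted p up to 0.0926). *COL6A3*, *TIMP1* and *SPARC* had log2 fold changes of -1.51, -0.55 and -0.40 in medium, where no stroma was present. Mouse RNA from OP9 cells could bind human probes, and its part in the values was not tested. Of 22 interferon-stimulated genes 3 fell, *IFITM1* by 1.03. Of 21 myeloid genes 3 fell, among them *LYZ* (lysozyme) by 1.12 and *FCER1G*, a signaling chain of Fc receptors, by 0.85. *ATF6*, a sensor of unfolded protein, was at 10.43, 10.42 and 10.40 with dox, against 9.55, 9.57 and 9.61 without dox (log2 fold change 0.84), with all 4 probe sets higher. Of the class IIa histone deacetylase genes, *HDAC4* fell by 0.57 and *HDAC5* rose by 0.40.

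Of 27 measured genes of Notch receptors and machinery, 1 was called: *ADAM10*, the protease that makes the first activating cut, rose by 0.44 (adjusted p = 2.11e-06). *NOTCH1* was at 7.93, 7.98 and 7.88 with dox and at 7.79, 7.81 and 7.74 without dox, which did not overlap but did not pass (log2 fold change 0.14, adjusted p = 0.495). Of 19 known Notch targets, *IL7R* and *TRIB2* rose, *HES1* and *SHQ1* fell, and 15 did not pass, where 2.57% of all genes were higher and 3.33% lower. *TRIB2*, a pseudokinase gene, averaged 0.58 higher with dox, and *SHQ1*, of ribonucleoprotein assembly, 0.32 lower. The target genes *DTX1*, *NRARP* and *NOTCH3* had overlapping groups, with log2 fold changes between -0.13 and 0.04.

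The response of *HES1* differed from that on OP9-GFP. On OP9-DL1 *HES1* was at 8.89, 8.88 and 8.72 with dox, against 9.22, 9.43 and 9.37 without dox (log2 fold change -0.51, SE 0.10, adjusted p = 0.00184). On OP9-GFP it was at 5.53, 5.74 and 5.65 with dox and at 7.40, 7.63 and 7.31 without dox (-1.81), and in medium at 5.17, 5.30 and 5.31 with dox and at 5.56, 5.84 and 5.36 without dox (-0.33). All 6 arrays on OP9-DL1 were thus above all 12 others, and the fall with dox was smaller on OP9-DL1 than on OP9-GFP by 1.30 (adjusted p = 6.07e-05). The difference from medium, -0.18, did not pass (adjusted p = 0.867). Against medium the targets *TRIB2* (-0.67, adjusted p = 1.09e-05) and *CCND3*, a cyclin gene (-0.35, adjusted p = 0.0459), were called, with log2 fold changes in medium of 1.24 and 0.26. *HES1* is the gene whose upstream sequence is printed above with its pair of RBPJ motifs.

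Most of the response was shared between cultures. No array is shared between the cultures. Of the 508 genes higher on OP9-DL1, 341 (67.1%) were also called higher on OP9-GFP, which is 56.8% of the 600 called higher there, and 488 had the same sign. Of the 658 lower genes, 486 (73.9%) were also called lower on OP9-GFP, 53.7% of the 905 there. In medium the shared calls were 377 of the higher genes (74.2%, or 37.9% of the 994 called in medium) and 373 of the lower genes (56.7%, or 52.8% of 707). The difference between the effects on OP9-DL1 and OP9-GFP was called for 26 genes (0.131% of all), 11 positive and 15 negative, and that between OP9-DL1 and medium for 152 genes (0.769%), 46 positive and 106 negative. The count of 26 rested on the settings: leaving out the no-dox OP9-GFP array of replicate 3 gave 25 positive differences, and leaving out that of replicate 2 gave 26 negative ones. The no-dox OP9-GFP arrays were the least alike of the 3 cultures (r = 0.990 to 0.995).

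*RGS18*, a regulator of G protein signaling in blood cells, had opposite directions in the cultures. It was at 8.97, 8.99 and 8.83 with dox on OP9-DL1, against 8.48, 8.53 and 8.51 without dox (log2 fold change 0.43, adjusted p = 0.00366). On OP9-GFP it was at 7.41, 7.45 and 7.26 with dox and at 8.30, 8.39 and 8.12 without dox (-0.90). The difference was 1.32 from OP9-GFP (adjusted p = 1.06e-05) and 1.67 from medium (adjusted p = 1.28e-08), where it had a log2 fold change of -1.25.

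*YWHAH*, a 14-3-3 adaptor gene, was at 11.16, 11.15 and 11.20 with dox on OP9-DL1 and at 10.63, 10.59 and 10.63 without dox (log2 fold change 0.56, adjusted p = 1.6e-07). In the other cultures all 12 arrays were between 9.80 and 10.17, with log2 fold changes of -0.09 on OP9-GFP and 0.15 in medium, and both differences were called (0.65, adjusted p = 0.00034, and 0.40, adjusted p = 0.0124). *TP53INP1* rose more on OP9-DL1 (2.11) than on OP9-GFP (1.37, difference 0.74, adjusted p = 0.000724) and had a log2 fold change of 1.90 in medium. For *HBD* and *TAF1D* the positive differences from OP9-GFP, 0.80 and 0.63, came with lower levels on OP9-GFP with dox, and neither was called on OP9-DL1.

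Several strong rises were smaller on OP9-DL1 than in another culture of the line, though not always than in both. *GLDC*, glycine decarboxylase, was at 5.38, 5.31 and 5.59 with dox on OP9-DL1, against 4.56, 4.13 and 4.61 without dox (log2 fold change 0.99, adjusted p = 2.29e-06). It reached 6.91, 7.01 and 6.81 with dox on OP9-GFP, against 4.47, 4.50 and 4.42 without dox (2.45), and in medium the log2 fold change was 2.47. The differences from OP9-GFP and medium were -1.45 and -1.47 (adjusted p = 0.000138 and 1.16e-05). *JCHAIN* rose by 3.23 on OP9-DL1, 4.41 on OP9-GFP and 2.41 in medium, a difference of -1.18 from OP9-GFP (adjusted p = 0.00034) and of 0.82 from medium (adjusted p = 0.00486), all from no-dox levels near the floor. *RAG1* rose by 1.27 on OP9-DL1, 2.14 on OP9-GFP and 2.24 in medium, and its difference passed against medium (-0.97, adjusted p = 0.0103) and not against OP9-GFP (-0.88, adjusted p = 0.0578).

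*FCER1A*, the α chain of the high-affinity IgE receptor, differed most from medium. It was at 3.00, 3.04 and 2.94 with dox on OP9-DL1 and at 2.44, 2.37 and 2.40 without dox (0.59, a call lost without replicate 2 of either group), and in medium at 7.23, 7.37 and 7.79 with dox and at 3.26, 2.97 and 3.47 without dox (4.23). The difference was -3.64 (adjusted p = 9.35e-11), and that from OP9-GFP, -0.32, did not pass (adjusted p = 0.745). *MMP20*, the enamel protease enamelysin, was near the floor on OP9-DL1, at 3.40, 2.72 and 2.68 with dox and at 2.55, 2.27 and 2.27 without dox, and did not pass there (adjusted p = 0.0728). It had log2 fold changes of 2.23 on OP9-GFP and 4.03 in medium. *AQP4* rose by 2.58 on OP9-DL1 and by 5.15 in medium (difference -2.56, adjusted p = 1.06e-08). *GZMA*, granzyme A, rose by 0.55 on OP9-DL1 and by 2.12 in medium (-1.57, adjusted p = 2.23e-08).

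With dox *BCHE* fell further on OP9-DL1 than on OP9-GFP, and the fall of *CD1A* differed from its response in medium. *BCHE* was at 3.50, 2.62 and 3.08 with dox on OP9-DL1, against 5.31, 5.15 and 5.20 without dox (-2.15), and the difference from OP9-GFP, where it fell by 0.97, was -1.18 (adjusted p = 0.0215). That call was lost without any of 6 of the 12 arrays, with an adjusted p up to 0.0864. *CD1A* had log2 fold changes of -0.37 on OP9-GFP and 0.08 in medium, and its fall of 1.24 on OP9-DL1 differed from medium by -1.32 (adjusted p = 0.00793) and did not pass against OP9-GFP (adjusted p = 0.248). Its no-dox arrays on OP9-DL1, 5.99 to 6.19, were above all 15 other arrays of the line, while its arrays with dox were at 4.52 to 5.26, against 4.58 to 5.45 in the other cultures. *CD48*, a surface ligand of lymphocytes, did not pass on OP9-DL1 (-0.19, adjusted p = 0.0724) but rose by 0.45 on OP9-GFP (difference -0.64, adjusted p = 0.000378).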

How the data were processed

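Affymetrix HG U133 Plus 2.0 arrays measured total RNA of 30 samples, 3 in each of 10 conditions, and conditions were taken from the labels. What the authors deposited is on the log2 scale, after robust multichip average (RMA), which corrects background, normalizes by quantiles and summarizes probes by median polish. Tools named in the submitters' processing notes are affy 1.64.0 and R 3.6.3. Because RMA equalizes arrays, a shift in the total RNA per cell is lost, and fold changes of dim probe sets are shrunk toward background. Arrays have no read depth, and their number limits the precision.

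Of 54675 probe sets, 62 control probe sets were left out and 41097 carried 1 gene symbol. No gene was named from the 1801 with several symbols or the 11777 not listed in the annotation used here. Each of 19775 genes was read through the brightest of its probe sets, by mean over 30 arrays. Of the probe sets with 1 symbol, 41043 matched the gene table by identifier. Contrasts were fitted with limma 3.58.1 in R 4.3.3 in 1 model over 30 arrays, with two-sided p-values and the Benjamini-Hochberg adjustment taken over 54613 probe sets. The fit was tested on simulated data of 54613 probe sets, of which 100 were shifted by 1 log2 unit and 100 by 2. Induction on OP9-DL1 recovered 97 and 100 with 8 false calls, and the difference from OP9-GFP 83 and 98 with 9. Noise was drawn independently for each value from the residual spread of its probe set, without array or culture effects. These counts describe that setting and do not test the calls made on the real arrays.

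Named are the 12 largest rises and falls without overlap, the 6 largest differences from OP9-GFP and the 3 from medium each way, *MEF2C*, the genes the study names from these arrays, and called members of 29 gene lists. *NOTCH1* and other members that did not pass, and the T cell receptor gamma probe sets, were chosen after their values were seen. So was *HES1*, which passed and is also among the 6 largest positive differences from OP9-GFP. Members and lists were chosen with earlier results of these data known. Promoter windows are from RefSeq (GRCh38.p14). The alternatives were a filter on dim probe sets, 2 other normalizations, another variance prior, fewer arrays, the replicate number as a block and control probe sets kept. The rest were 2 other thresholds, a t-test on the OP9-DL1 arrays alone, other choices of probe set, another motif form, and each array left out. ChIP-Seq, flow cytometry and RT-qPCR were not analysed here. Arrays were not paired by replicate number in the main model, and the labels do not say whether the numbers mark shared cultures or days. Deviations of same-numbered arrays correlated at -0.17 to -0.01 on OP9-DL1, -0.08 to 0.19 on OP9-GFP and -0.27 to 0.24 in medium. With 3 arrays in a group, these values cannot decide whether arrays are paired.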

Additional observations from a re-analysis of the deposited data

Results flagged for a closer look

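Each value here is a log2 fold change on OP9-DL1 minus that in the other culture, singled out because the difference itself passed the test in limma (adjusted p under 0.05 over all probe sets). Against OP9-GFP the positive differences were 1.32 for *RGS18*, 1.30 for *HES1*, 0.80 for *HBD*, 0.74 for *TP53INP1*, 0.65 for *YWHAH* and 0.63 for *TAF1D*. The negative ones were -1.66 for *MMP20*, -1.45 for *GLDC*, -1.18 for *JCHAIN*, -1.18 for *BCHE*, -0.99 for *CDH17* and -0.95 for *BBOX1*. When single arrays were left out, *BCHE*, *HBD*, *CDH17* and *BBOX1* lost this call in at least 1 case, with adjusted p up to 0.0864, 0.142, 0.0998 and 0.173.

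Against medium the differences were 1.68 for *HBD*, 1.67 for *RGS18* and 1.65 for *S100P*, and -3.64 for *FCER1A*, -3.46 for *MMP20* and -2.56 for *AQP4*. *S100P* was at 4.02, 4.10 and 4.01 with dox on OP9-DL1, against 4.10, 3.94 and 4.14 without dox, and in medium at 4.02, 4.06 and 3.89 with dox, against 5.50, 5.51 and 5.96 without dox, so its difference came with the no-dox level in medium. *HBD* was at 9.08 to 9.14 without dox in medium and 6.47 to 6.76 without dox on OP9-DL1.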

How the results depend on the processing

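Main values of the counts below are those given above. Of genes higher and lower with dox on OP9-DL1, 150 and 191 met the study's criteria (log2 fold change beyond 0.6, p under 0.05, adjusted p under 0.1), and 58 and 53 were beyond a log2 fold change of 1. The study applied its criteria in limma to 9 arrays with dox against 9 without, and not to OP9-DL1 alone. By a t-test on the OP9-DL1 arrays alone, 1791 and 1842 had p under 0.05 and 277 and 340 passed after Benjamini-Hochberg. Leaving out each array in turn gave 344 to 424 and 458 to 527. For the differences from OP9-GFP, positive and negative counts were 27 and 28 with dim probe sets removed (mean under 5), 35 and 33 with a trended and robust prior, 2 and 1 from the groups compared alone, 6 and 8 from the 18 arrays of the line, and 2 and 4 beyond a log2 difference of 1, while quantile normalization gave 23 positive. Without 1 array they were 8 to 25 and 8 to 26. The negative count was 8 without the OP9-GFP dox array of replicate 1 or the OP9-DL1 no-dox array of replicate 1, and 9 without OP9-GFP dox replicate 3, OP9-GFP no-dox replicate 3 or OP9-DL1 dox replicate 2. For the differences from medium they were 71 and 161 with the trended prior, 28 and 62 from the groups compared alone, 9 and 25 beyond a log2 difference of 1, 30 positive at the study's criteria and 63 negative from the 18 arrays, and 30 to 40 and 73 to 110 without 1 array (30 without OP9-DL1 dox replicate 2). With 1 mismatch allowed in its core, the MEF2 motif was in 6.37% of windows of higher genes and 3.62% of lower genes, against 4.58% of all. The replicate number as a block gave 520 and 672 calls on OP9-DL1, 11 and 13 for OP9-GFP and 46 and 112 for medium, and moved none of these counts by over 1.5 times. Signs turned for genes that did not pass: *S100P* (0.00498, 0.0253 and 0.00315 without OP9-DL1 no-dox replicate 1, no-dox replicate 3 or dox replicate 3, with -0.0758 to 0.0253 over all 6), *PAX5* (-0.0888 without no-dox replicate 2 and -0.0834 without dox replicate 3, with -0.0888 to 0.0987 over all 6) and *LMO2* (-0.0448 by the mean of its probe sets, -0.268 by the most variable). The causes were not tested.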
